A study of Mus musculus with 4 samples.

Results

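The genes described here encode the enzymes that write, copy and oxidise cytosine methylation in DNA. They are the maintenance methyltransferase gene Dnmt1 and its recruiting factor Uhrf1, the de novo methyltransferase genes Dnmt3a and Dnmt3b, and the dioxygenase genes Tet1, Tet2 and Tet3. They were taken by gene symbol, and all 7 were found among the 23420 rows of the count files. The 12610 genes that passed the count filter and were tested included all 7. Every library, control libraries included, came from 1 mouse line of large pre-B cells, the dividing stage of B cell development, deficient for Irf4 and Irf8 (Irf4/8-/-). In the shMyb group (2 libraries) the cells had received a retrovirus carrying GFP and a hairpin against Myb mRNA, and in the shLuc group (2 libraries) the same retrovirus carried a hairpin against luciferase mRNA. Cells were kept on OP9 stroma with 10 ng/ml IL-7, cultured for 72 hours after transduction and sorted for GFP. Each group was transduced as duplicate sets of 12 wells of this line, so the p-values below measure the spread between transductions of 1 line and not between lines or animals.

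In mammals DNA methylation sits mainly on cytosines that precede guanine, in the pair written CpG. After replication UHRF1 binds CpG sites that are methylated on the old strand alone, and recruits DNMT1, which methylates the new strand. DNMT3A and DNMT3B methylate sites that were not methylated before. The TET proteins use oxygen and 2-oxoglutarate to oxidise 5-methylcytosine to 5-hydroxymethylcytosine and further products, which are lost at replication or cut out by base excision repair. In mouse B cell progenitors Tet2 and Tet3 together are needed for normal passage to later stages and for rearrangement of the immunoglobulin kappa locus, while Dnmt3a and Dnmt3b together delay the onset of that rearrangement.

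Total counts ran from 36573743 to 38318335 in the shMyb libraries and from 40701550 to 44682954 in the shLuc libraries. Values below are CPM, counts scaled to the size of each library by the TMM method, and fold changes are shMyb over shLuc. The hairpin's target was not lower: Myb stood at 617 and 639 CPM in the shMyb libraries and at 616 and 600 CPM in the shLuc libraries (log2 fold change 0.046, 95% interval -0.030 to 0.12, edgeR adjusted p = 0.283). With library totals as the scale it was called higher (0.11, adjusted p = 0.0109). The differences below are therefore differences between libraries that carry these labels. The 12 pre-B cell markers, all tested, summed to 5664 and 5554 CPM in shMyb and 5661 and 5765 CPM in shLuc. The 13 stromal markers summed to 60.6 and 67.5 CPM in shMyb, against 96.3 and 79.9 CPM in shLuc, and of the 12 tested 4 fell and 2 rose. Among them the matrix genes Fn1 (-1.52), Thbs1 (-1.45) and Bgn (-1.30) fell, while Lum was at 0 to 2 counts in every library. The 2 that rose were Sparc (0.42) and Postn (1.01), and the list's median log2 fold change was -0.031. Postn had only 22 and 19 counts in shMyb and 12 and 10 in shLuc. With DESeq2 none of the 12 rose and 4 fell, and with an offset along the abundance trend none rose and 5 fell. The 11 myeloid markers summed to 7.62 and 9.21 CPM in shMyb, against 4.46 and 3.49 CPM in shLuc, and of the 6 tested 4 rose and none fell. Itgam (1.51), Cd14 (1.73) and S100a9 (1.93) rose, with Elane at 0 counts in all 4 libraries and Mpo at 0 to 1. Their counts were low: Cd14 had 54 and 53 counts in shMyb and 21 and 14 in shLuc. S100a9 had 33 and 48 counts in shMyb and 18 and 5 in shLuc. Csf1r was lower but not called (-0.40, edgeR adjusted p = 0.205). For comparison with these marker lists, 30.6% of all tested genes rose and 31.7% fell. The 7 T cell markers with a row summed to 0.616 and 0.719 CPM in shMyb and 0.876 and 0.666 CPM in shLuc. The stromal and myeloid sums differed between the groups without overlap, and their part in the results below was not tested.

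Promoter sequence is shown for the genes whose values the results turn on, because CpG pairs are the sites these enzymes act on and because Dnmt1 and Uhrf1, both known to be induced around S phase, are set against each other below. The windows run from 250 bases before to 50 bases after a RefSeq start (GRCm38.p6), printed 5′ to 3′ on the strand of the gene. Where RefSeq gives several starts, the start with the most CpG pairs was used, and counts per gene do not show which start a transcript came from. The Dnmt1 start used lies 7265 bases from the outermost GENCODE start of the gene, and the Tet3 start 17406 bases from its own. Capitals mark matches to the letters of the E2F motif (TTTCCCGC, TTTCGCGC, TTTGCCGC or TTTGGCGC) or of the MYB motif (CAACNG or TAACNG), searched on both strands.
Dnmt1, chr9:20952574-20952873, minus strand: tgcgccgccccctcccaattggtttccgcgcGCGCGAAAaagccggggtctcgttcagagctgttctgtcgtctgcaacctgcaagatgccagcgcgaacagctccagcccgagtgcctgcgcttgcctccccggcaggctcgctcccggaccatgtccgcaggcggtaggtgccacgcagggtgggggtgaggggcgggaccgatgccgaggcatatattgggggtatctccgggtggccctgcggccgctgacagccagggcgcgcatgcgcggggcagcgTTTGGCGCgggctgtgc
Uhrf1, chr17:56304063-56304362, plus strand: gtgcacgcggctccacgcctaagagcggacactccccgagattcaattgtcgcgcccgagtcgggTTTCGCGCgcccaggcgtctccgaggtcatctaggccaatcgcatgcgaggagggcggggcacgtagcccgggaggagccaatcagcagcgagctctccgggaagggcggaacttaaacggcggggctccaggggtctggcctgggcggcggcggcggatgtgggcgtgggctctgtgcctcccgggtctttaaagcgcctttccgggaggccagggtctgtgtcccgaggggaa
Tet2, chr3:133544341-133544640, minus strand: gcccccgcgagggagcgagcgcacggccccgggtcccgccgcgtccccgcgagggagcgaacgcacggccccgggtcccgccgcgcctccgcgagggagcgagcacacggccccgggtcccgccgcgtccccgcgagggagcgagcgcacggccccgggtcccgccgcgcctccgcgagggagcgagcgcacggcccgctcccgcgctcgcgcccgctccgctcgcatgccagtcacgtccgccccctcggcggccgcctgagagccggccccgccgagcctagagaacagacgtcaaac
Tet3, chr6:83441629-83441928, minus strand: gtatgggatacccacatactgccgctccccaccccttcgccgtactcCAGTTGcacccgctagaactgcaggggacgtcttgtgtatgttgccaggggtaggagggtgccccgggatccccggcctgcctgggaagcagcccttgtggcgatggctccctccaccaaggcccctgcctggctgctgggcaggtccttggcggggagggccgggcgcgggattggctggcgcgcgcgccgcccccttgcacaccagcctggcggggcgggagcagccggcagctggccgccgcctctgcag
The Tet2 window held 57 CpG pairs, more than 99.8% of 32851 such windows in the RefSeq table, whose median was 7. The Dnmt1 and Uhrf1 windows held 33 each, more than 91.4% of windows, and the Tet3 window held 22. E2F letters were in 2.26% of all windows and in 2 of the 7 windows used here, those of Dnmt1 and Uhrf1. Every form of the E2F letters holds a CpG pair, and the Dnmt1 and Uhrf1 windows were chosen for having the most CpG pairs. The 32851 windows were not chosen in this way. The choice thus favours E2F letters and high CpG counts in these genes, and the shares are not like for like. In Dnmt1 the matches began 219 bases before the start and at base 34 after it, and in Uhrf1 the match began 185 bases before the start. MYB letters were in 49.7% of all windows and in 2 of the 7, those of Tet3 and Tet1. No window of the 7 held both motifs. These matches depend on the start chosen: RefSeq's other starts of Dnmt1 (2 windows) and Uhrf1 (1 window) held no E2F letters, and 1 window of each held MYB letters, that of Uhrf1 beside the outermost GENCODE start. A match is a run of letters, and no binding was measured.

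Tet2 (1.43-fold) and Tet3 (1.20-fold) were higher in shMyb, and Dnmt3b (1.20-fold), Uhrf1 (1.16-fold) and Dnmt3a (1.07-fold) were lower. Dnmt1, the main methyltransferase transcript, and the scarce Tet1 did not pass the test. An edgeR quasi-likelihood test adjusted over all 12610 tested genes called 5 of the 7 genes, where it called 62.2% of all tested genes. Of the 7, 2 were called higher (30.6% of all tested genes were) and 3 lower (31.7% were). A share of 5 in 7 is near that background, so the count by itself is no result about these genes, and what follows rests on their single values. In the same way, the shMyb and shLuc libraries did not overlap for 5 of the 7 genes, where they did not overlap for 82.1% of tested genes. For 2 of the 7 both shMyb libraries were higher (41% of tested genes) and for 3 both were lower (41.2%). All of the changes were small. The median size of a log2 fold change over tested genes was 0.24, and 23.0% of tested genes had a larger one than Tet2, the gene of the 7 that moved most. In RNA from a bulk sample, fewer cells that express a gene and less of its RNA per cell cannot be told apart.

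**Figure D1:**
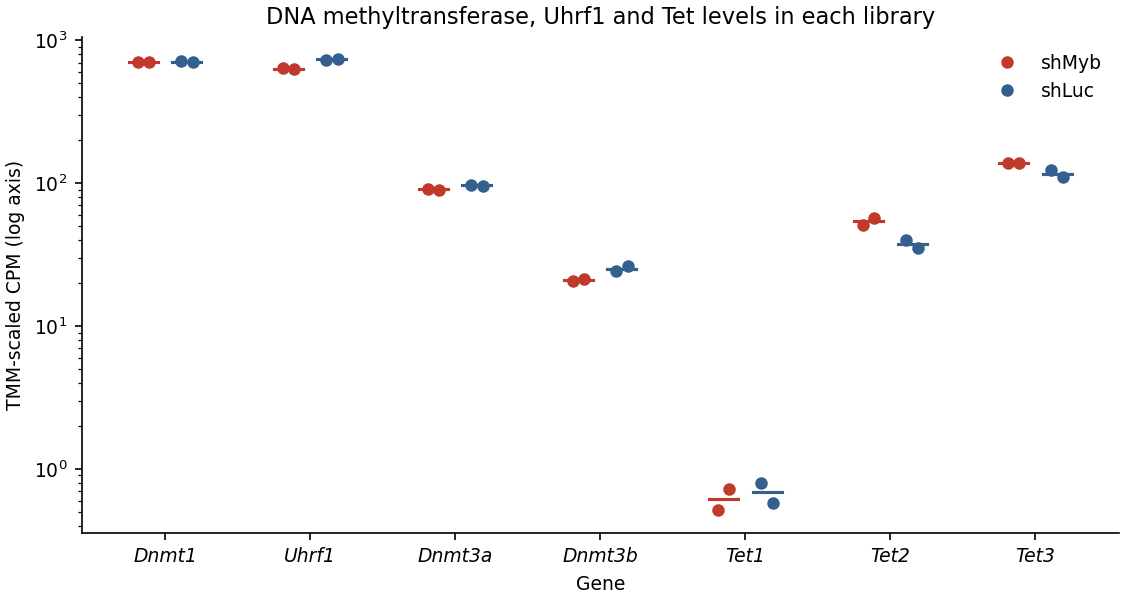
TMM-scaled CPM of the 7 genes in each library (log axis), with shMyb in red left of shLuc in blue; points are libraries and bars are means of 2. Tet2 and Tet3 sat higher in both shMyb libraries than in both shLuc libraries, Uhrf1, Dnmt3a and Dnmt3b sat lower, and the libraries overlapped for Dnmt1 and Tet1.

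Among the genes of maintenance methylation, Uhrf1 fell, and Dnmt1 did not pass the test. Uhrf1 (chromosome 17, 56303321 to 56323486, plus strand, GENCODE M21 on GRCm38, protein coding) was at 637 and 629 CPM in the shMyb libraries and at 736 and 738 CPM in the shLuc libraries. The shLuc libraries were both above the shMyb libraries, by far more than the duplicates differed. The means were 633 ± 6.19 CPM in shMyb and 737 ± 1.91 CPM in shLuc (SD, n = 2 each), a 1.16-fold lower level in shMyb (log2 fold change -0.22, SE 0.036, edgeR adjusted p = 1.22e-05). The call held in all 14 other settings, at -0.12 (abundance trend) to -0.27 (GC and length offset), and library totals gave -0.16.

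Dnmt1 (protein coding, minus strand of chromosome 9, 20907209 to 20959888) stood at 701 and 708 CPM in shMyb and at 717 and 706 CPM in shLuc. Those ranges overlapped. The log2 fold change was -0.015 (SE 0.036, edgeR adjusted p = 0.733) with a 95% interval of -0.090 to 0.060. The sign of so small a value was set by the scaling. It was 0.048 (adjusted p = 0.195) when libraries were scaled by their totals alone, 0.090 (adjusted p = 0.0152) with an offset that follows the trend of fold change with abundance, and -0.13 (adjusted p = 0.00192) with an offset for GC content and exon length. The abundance trend therefore called Dnmt1 higher and the GC and length offset called it lower.

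A ratio within a library does not depend on the factor that scales each library, but an offset that differs by gene can move it. Per kilobase of annotated exon, the ratio of Dnmt1 to Uhrf1 was 0.635 and 0.650 in the shMyb libraries and 0.563 and 0.552 in the shLuc libraries, without overlap. Both transcripts have 53.8% GC, over 7377 bases of exon in Dnmt1 and 4259 in Uhrf1. With 2 libraries per group the smallest p that an exact two-sided permutation test allows is 0.333, and this ratio reached it. Among 25 genes of S phase, which marks the part of the cell cycle in which Dnmt1 and Uhrf1 act, 24 fell, none rose and 1 (Prim1) was not called, at a median log2 fold change of -0.26. Examples are Dut, a nucleotide pyrophosphatase (-0.48), the helicase subunit Mcm6 (-0.43) and Ccne2, a cyclin of the G1 to S transition (-0.45). Of 20 genes of G2 and mitosis 14 fell and 2 rose, at a median of -0.12, and with library totals 8 fell and 3 rose. Over all tested genes 31.7% fell and 30.6% rose, and the median was 0.0048. Uhrf1 lay near the S phase median, and Dnmt1 lay above all called S phase genes, the nearest of which was E2f1 at -0.11. The share of cells in S phase was not measured, and the part of that list in the Uhrf1 value was not tested.

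The de novo methyltransferase genes were both lower in shMyb. The ratio of Dnmt3a to Dnmt3b per kilobase was 1.34 and 1.29 in the shMyb libraries and 1.23 and 1.12 in the shLuc libraries, without overlap, at the smallest exact permutation p of 0.333. Dnmt3b (chromosome 2, 153649450 to 153687730, plus strand, protein coding) was at 20.8 and 21.4 CPM in the shMyb libraries and at 24.3 and 26.3 CPM in the shLuc libraries. The groups did not overlap, and the gap between them exceeded the gap within either. The means were 21.1 ± 0.441 CPM in shMyb and 25.3 ± 1.42 CPM in shLuc (SD, n = 2 each), 1.20-fold lower in shMyb (log2 fold change -0.26, SE 0.060, edgeR adjusted p = 0.000591). The call held in all 14 other settings tried, at -0.20 to -0.34. Dnmt3c, a copy of Dnmt3b known from the male germ line of mice, was not analysed here, and reads that fit both copies may have been lost or split.

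Dnmt3a (chromosome 12, 3806007 to 3914443, plus strand, protein coding) was at 91.1 and 90.3 CPM in shMyb and at 97.8 and 96.5 CPM in shLuc. The duplicates lay close together and the groups did not overlap, but the difference was small (log2 fold change -0.099, SE 0.038, edgeR adjusted p = 0.0256). The call ended in 7 of 14 other settings, among them library totals (-0.036, adjusted p = 0.379), the abundance trend (-0.055, adjusted p = 0.182), DESeq2 (-0.098, adjusted p = 0.119), and the fits without shMyb replicate 2 (-0.094, adjusted p = 0.0750) and without shLuc replicate 1 (-0.11, adjusted p = 0.0550). With the GC and length offset it was larger (-0.29, adjusted p = 7.93e-07). In 133 bases the exons of Dnmt3a overlap Dnmt3aos on the opposite strand, whose reads may not be separated, and its pseudogene Dnmt3a-ps1 was not analysed here.

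Among the Tet genes, Tet2 showed the largest change of the 7. Tet2 (protein coding, minus strand of chromosome 3, 133463679 to 133545139) stood at 51.3 and 56.8 CPM in the shMyb libraries and at 40.3 and 35.3 CPM in the shLuc libraries. The lowest shMyb library was above the highest shLuc library, although the duplicates of each group also differed. The means were 54.0 ± 3.91 CPM in shMyb and 37.8 ± 3.57 CPM in shLuc (SD, n = 2 each), 1.43-fold higher in shMyb (log2 fold change 0.52, SE 0.068, 95% interval 0.37 to 0.67, edgeR adjusted p = 5.29e-05). The call held in all 14 other settings, at 0.41 (without shLuc replicate 2) to 0.59 (without shLuc replicate 1). Exons of Tet2 share 43 bases with Gm42567 on the opposite strand.

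The order of the duplicates for Tet2, with shMyb replicate 2 above replicate 1 and shLuc replicate 1 above replicate 2, was also that of Kcnq1ot1, a long unspliced RNA kept in the nucleus. Kcnq1ot1 was at 46.4 and 63.7 CPM in shMyb and at 53.6 and 27.1 CPM in shLuc, and its groups overlapped. Tet3 had the same order, at 139.4 and 139.8 CPM in shMyb and 122.9 and 109.8 CPM in shLuc, although its shMyb libraries were almost equal. The part of such a difference between libraries in the Tet2 and Tet3 values was not tested. The tested genes nearest to Tet2 in pattern, by the Euclidean distance between log2 CPM profiles centred over the 4 libraries, were Fgfrl1 (distance 0.012), Pot1b (0.018) and Fyco1 (0.020). Those nearest to Dnmt1, the most abundant of the 7 in CPM, were Mina (0.0064), Xrcc1 (0.0068) and Clgn (0.0071).

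Tet3 (protein coding, minus strand of chromosome 6, 83362373 to 83459084) stood at 139 and 140 CPM in the shMyb libraries and at 123 and 110 CPM in the shLuc libraries. The shMyb libraries were almost equal and above both shLuc libraries, which were further apart. The means were 140 ± 0.264 CPM in shMyb and 116 ± 9.25 CPM in shLuc (SD, n = 2 each), 1.20-fold higher in shMyb (log2 fold change 0.26, SE 0.045, edgeR adjusted p = 5.59e-05). The call held in 13 of 14 other settings, at 0.17 to 0.33, and ended with the offset for GC content and exon length (0.018, adjusted p = 0.689). Tet3 has 16695 bases of annotated exon at 55.8% GC. Dnmt3a is much alike in both, with 16642 bases and 53.3% GC, and the same offset moved it down as well, to -0.29. The ratio of Tet3 to Dnmt3a per kilobase was 1.53 and 1.54 in the shMyb libraries and 1.25 and 1.14 in the shLuc libraries, without overlap (exact two-sided permutation p = 0.333, the smallest possible). The ratio of Tet2 to Dnmt3a was 0.555 and 0.620 in shMyb and 0.407 and 0.361 in shLuc, with the same p. Tet2 differs from Dnmt3a in GC content (44.1%), and the offset left Tet2 at 0.46 against -0.29 for Dnmt3a.

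**Figure D2:**
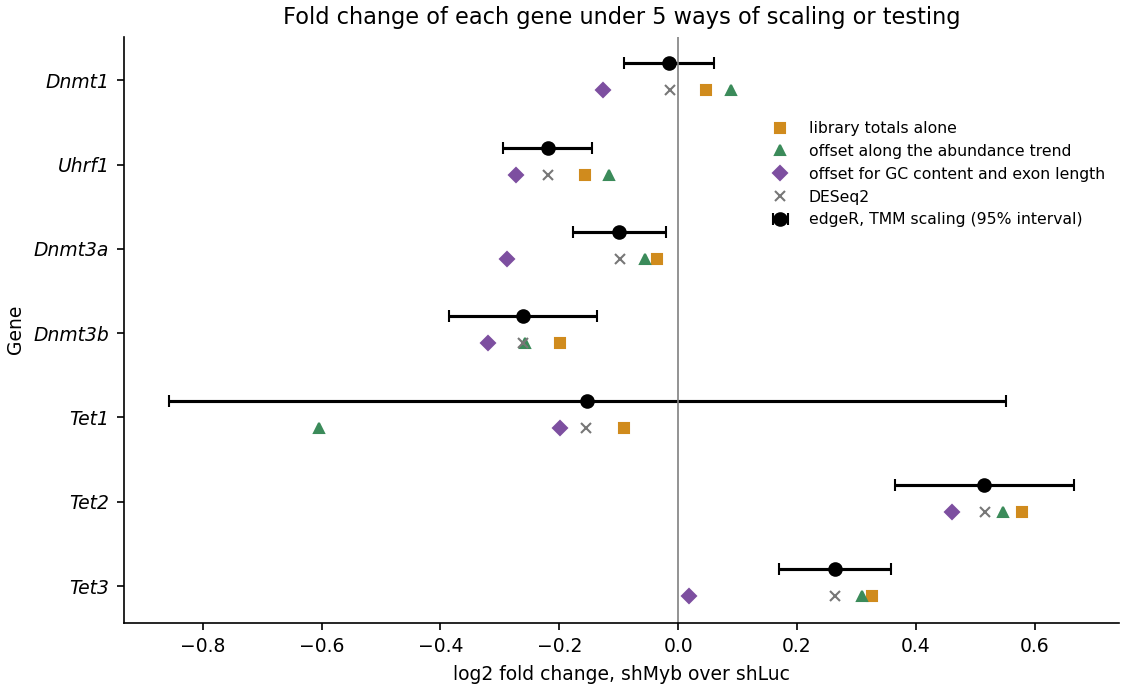
log2 fold change, shMyb over shLuc, of the 7 genes: black points with 95% intervals are the edgeR fit with TMM scaling, and coloured symbols are library totals, the abundance trend offset, the GC and length offset, and DESeq2. Tet2 stayed between 0.46 and 0.58 in these 5 fits, Tet3 reached 0.018 with the GC and length offset, and Dnmt1 lay on either side of 0.

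Tet1 (protein coding, minus strand of chromosome 10, 62804570 to 62908996) was near the lower limit of what these libraries measure. It had 20 and 27 counts in the shMyb libraries and 32 and 25 counts in the shLuc libraries, or 0.513 and 0.719 CPM in shMyb and 0.801 and 0.574 CPM in shLuc. The groups overlapped, and the log2 fold change was -0.15 with a 95% interval of -0.86 to 0.55 (edgeR adjusted p = 0.713). A change of the size seen for Tet2 was thus not detectable in Tet1 at this depth.

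Levels can be compared between genes only per length. Per kilobase of annotated exon, Uhrf1 was the most abundant of the 7, at 149 ± 1.45 CPM per kb in shMyb and 173 ± 0.448 CPM per kb in shLuc (SD, n = 2 each), and Dnmt1 followed at 95.5 ± 0.619 CPM per kb in shMyb and 96.5 ± 1.05 CPM per kb in shLuc. Tet3 stood at 8.36 ± 0.0158 CPM per kb in shMyb and 6.97 ± 0.554 CPM per kb in shLuc. Dnmt3a stood at 5.45 ± 0.0309 CPM per kb in shMyb and 5.84 ± 0.0579 CPM per kb in shLuc. Below it came Dnmt3b (4.14 ± 0.0863 CPM per kb in shMyb and 4.96 ± 0.277 CPM per kb in shLuc), then Tet2 (3.20 ± 0.232 CPM per kb in shMyb and 2.24 ± 0.211 CPM per kb in shLuc). Tet1 was last at 0.040 CPM per kb in shMyb and 0.044 CPM per kb in shLuc. This order was the same in all 4 libraries, and no neighbours overlapped between genes within a group. The lengths join the exons of all annotated isoforms, which lowers the values of genes with many isoforms, such as Tet2, Tet3 and Dnmt3a.

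Set against each other on this scale, the level of the methyltransferases summed over Dnmt1, Dnmt3a and Dnmt3b was 105 and 106 CPM per kb in the shMyb libraries and 108 and 107 CPM per kb in the shLuc libraries. Dnmt1 made up 90.9% of that sum in both shMyb libraries, against 90.1% and 89.7% in the shLuc libraries. The summed level of the Tet genes was 11.4 and 11.8 CPM per kb in shMyb and 9.81 and 8.71 CPM per kb in shLuc. Tet3 was the main Tet transcript, at 73.1% and 71.1% of the Tet sum in shMyb and 75.1% and 75.5% in shLuc, and Tet2 gave nearly all of the rest. The ratio of Dnmt1 to the Tet sum was 8.32 and 8.14 in shMyb and 9.92 and 11.0 in shLuc. The groups did not overlap in any of the 13 such quantities computed, each at the smallest possible permutation p of 0.333. None can thus pass a threshold after adjustment. The 13 are built from the same 7 genes and are not separate results, and the groups did not overlap for 82.1% of tested genes. The summed levels, unlike the ratios, depend on the factor that scales each library. Both offsets differ by gene and can move the ratios too, which were not recomputed with them. Dnmt1, the bulk of the methyltransferase sum, had a log2 fold change of 0.048 with library totals.

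**Figure D3:**
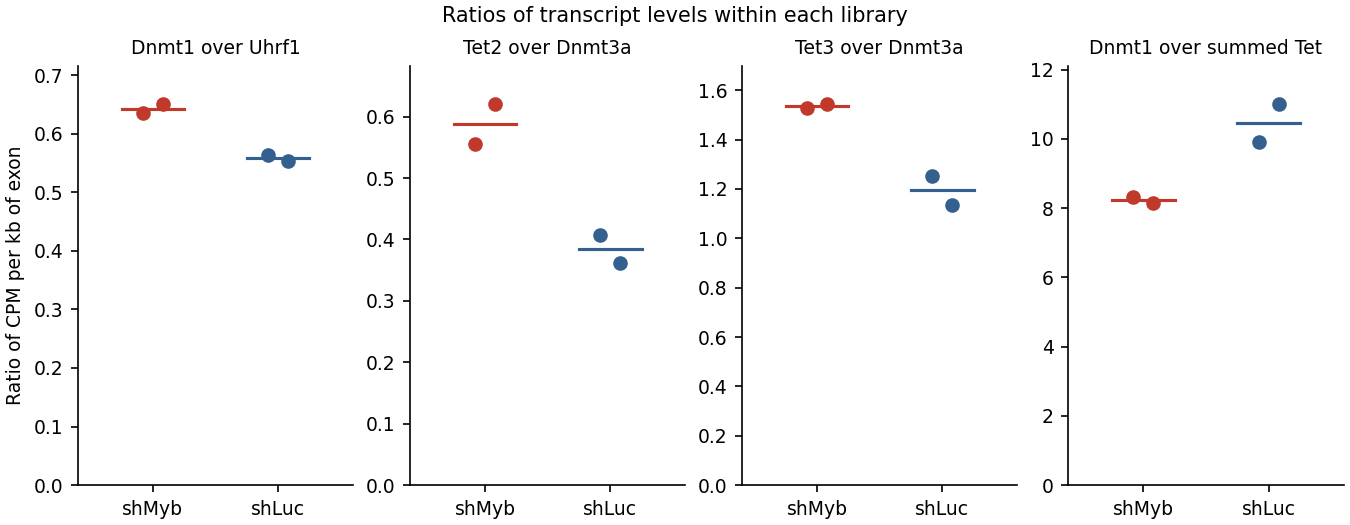
Ratios of CPM per kilobase of exon within each library, shMyb in red left of shLuc in blue, with a point per library, a bar at the mean and each axis starting at 0. Dnmt1 over Uhrf1, Tet2 over Dnmt3a and Tet3 over Dnmt3a were higher in both shMyb libraries, and Dnmt1 over the summed Tet genes was lower.

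Partners of the maintenance and de novo enzymes went both ways. Of 15 listed cofactors 11 were tested, 5 fell, 3 rose and 3 were not called (31.7% of all tested genes fell and 30.6% rose), at a median log2 fold change of -0.056. Cdca7 (-0.39) and Hells (-0.27), which form a nucleosome remodeller that lets maintenance methylation reach packed DNA, fell, as did Pcna (-0.32), the replication clamp that DNMT1 binds. The ligase gene Lig1 (-0.23) and the corepressor gene Trim28 (-0.20) fell too. Pcna is also among the 25 S phase genes above, whose median was -0.26. The part of that list in the cofactor values was not tested. Cdca7 was at 248 and 237 CPM in the shMyb libraries and at 315 and 320 CPM in the shLuc libraries, without overlap. Uhrf2, the paralogue of Uhrf1, rose at 261 and 254 CPM in shMyb against 234 and 236 CPM in shLuc (0.13, edgeR adjusted p = 0.00260), a call that ended without shLuc replicate 1 (0.10, adjusted p = 0.0635). Nsd1 (0.25) and Setd2 (0.23), which methylate histone H3 at the lysine that DNMT3A and DNMT3B read, rose. The duplicates of both stood in the same order as those of Tet2. The part of that order in their values was not tested. The list's median turned to 0.0064 with library totals and 0.0014 with the abundance trend. Dnmt3l, a cofactor of the de novo enzymes in germ cells, had 0 and 1 counts in shMyb and 0 and 0 counts in shLuc.

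Among 15 readers of methylated or unmethylated CpG, 14 were tested, 6 rose, 5 fell and 3 were not called, at a median of 0.087. Over all tested genes 30.6% rose and 31.7% fell. The methyl-CpG binding genes moved apart: Mbd2, a repressor of methylated promoters, fell (-0.70), while Mbd4, a glycosylase that repairs mismatches at CpG sites, rose (0.56), and Zbtb4, a zinc finger gene whose protein binds methylated CpG, rose (1.02). Mbd4 was at 53.6 and 56.7 CPM in shMyb and at 39.9 and 35.0 CPM in shLuc, its duplicates in the same order as those of Tet2. With library totals 8 genes of the list rose and 1 fell, and with the GC and length offset 6 rose and 6 fell.

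Of 14 genes of the repair that follows TET oxidation and of TET partners, 13 were tested, 5 rose, 3 fell and 5 were not called, at a median of 0.14. That share of calls is at the background of 62.2% over all tested genes and says nothing about the list. With DESeq2 3 rose and 3 fell. Ogt, the sugar transferase that binds TET proteins, was at 535 and 577 CPM in shMyb and at 400 and 357 CPM in shLuc (0.55, edgeR adjusted p = 2.60e-05), with its duplicates in the same order as those of Tet2. Neil1, a glycosylase, rose (0.56), whereas the endonuclease gene Apex1 (-0.56) and Parp1 (-0.43) fell. Tdg, the glycosylase that removes oxidised methylcytosines, had 23 and 22 counts in shMyb and 29 and 42 counts in shLuc and did not pass (edgeR adjusted p = 0.158). The annotation holds a processed pseudogene of it, Tdg-ps, so its level is uncertain.

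Genes that supply the methyl donor S-adenosylmethionine and the TET substrate 2-oxoglutarate were mostly lower. All 16 were tested, 13 fell, 2 rose and 1 was not called, at a median of -0.23. Over all tested genes 31.7% fell and 30.6% rose. The folate enzyme genes Mthfd1 (-0.36) and Shmt1 (-0.36) fell, as did Mat2a (-0.26), which makes the donor, Ahcy (-0.32), which clears the product of methyl transfer, and Idh3a (-0.32), a subunit of the mitochondrial enzyme that makes 2-oxoglutarate. With DESeq2 and with the GC and length offset 10 fell and none rose.

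**Figure D4:**
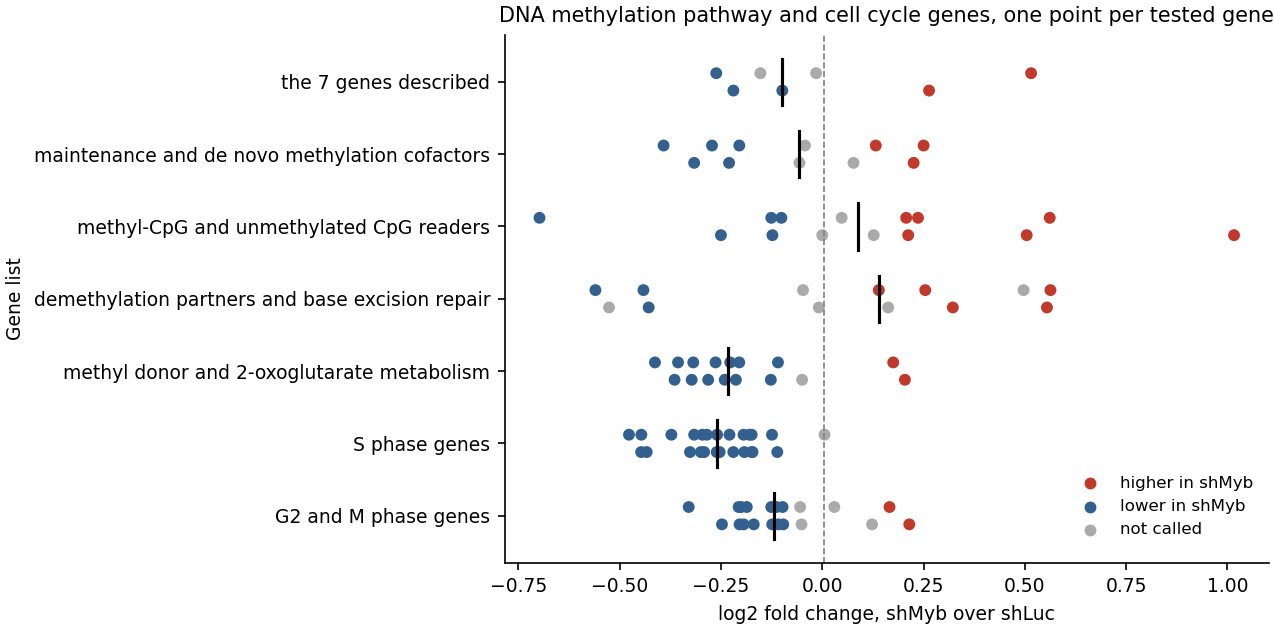
log2 fold change, shMyb over shLuc, of each tested gene in 7 lists (one row per list), red where called higher, blue where called lower and grey where not called; black bars are list medians and the dashed line is the median of all tested genes. S phase, methyl donor and G2 and M phase genes lay mostly left of the line, at medians of -0.26, -0.23 and -0.12. The other lists lay on both sides.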

How the data were processed

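The deposited files held raw counts per gene symbol, 1 library per file. FastQC, STAR, HTSeq, DESeq2 and the mm10 build stand in the submitters' processing notes, and per the labels the library kit was directional. The annotation, strand setting and filters were not given in the sources used here, so overlapping genes on opposite strands may not be separated. Symbols were matched to GENCODE M21 (GRCm38), which gave coordinates, joined exon length and the GC content pooled over a gene's annotated transcripts.

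The main test was edgeR 4.0.16 (R 4.3.3) on all 4 libraries, with filterByExpr at a minimum count of 10, TMM, glmQLFit with robust estimation and glmQLFTest. Genes were called at a Benjamini-Hochberg adjusted p below 0.05 over 12610 genes. Total counts of 36573743 to 44682954 became TMM-scaled sizes at which 3 counts are worth 0.0689 to 0.0799 CPM, the limit that a count of 0 allows, for counting error only. Duplicates differed by more than counting noise (chi-square per degree of freedom 4.23 in shMyb and 3.76 in shLuc) and counted as separate samples.

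The 7 genes and all gene lists were chosen with earlier results of these data known. Outside the 7, genes were named as the 3 with the smallest p in a list or the 3 nearest in pattern. Uhrf2, Nsd1, Setd2, Ogt, Tdg, Mat2a, Ahcy, Trim28, Lig1, Prim1, E2f1, Dnmt3l, Lum, Elane, Mpo and Kcnq1ot1 were added after their values were seen. So were Csf1r, Sparc and Postn. Alternatives were RLE scaling, library totals, offsets along abundance or along GC content and length (mgcv 1.9.3), no filter, DESeq2 1.42.0, limma-voom (limma 3.58.1), a replicate block, an adjusted p below 0.01 and leaving out each library. A crossed block was added after seeing the data.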

Additional observations from a re-analysis of the deposited data

How the results depend on the processing

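Tet2, Uhrf1 and Dnmt3b kept their direction and their call in all 14 alternatives. Dnmt1 turned to 0.048 with library totals and 0.090 with the abundance trend, where it was called higher, and passed as lower with the GC and length offset (-0.13). Dnmt3a lost its call with library totals (-0.036), the abundance trend (-0.055), DESeq2 (-0.098), the replicate block (-0.099, adjusted p = 0.0739) and an adjusted p below 0.01 (-0.099). Leaving out a library gave Dnmt3a -0.094 to -0.12, and it lost its call without shMyb replicate 2 or shLuc replicate 1. Tet3 lost its call with the GC and length offset (0.018), which left 1 of the 7 genes called higher. Tet1 ran from -0.41 to 0.076 over the fits without 1 library, positive without shMyb replicate 1 (0.066) and shLuc replicate 1 (0.076). The causes were not tested. Of the genes near Dnmt1, all uncalled, Clgn (0.042, 0.033 and 0.074) and Mina (0.052, 0.025 and 0.050) turned with library totals, the abundance trend and the GC and length offset, and Xrcc1 turned with the first 2 of these (0.054 and 0.060). Over all tested genes the median was 0.068 with library totals and within 0.01 of 0 with both offsets. Same-numbered libraries deviated in opposite directions (correlation -0.34 over 8645 genes). Crossed numbers give the same value with its sign changed (0.34), so this cannot settle whether the numbers mark pairs. The replicate block called 7341 genes and a crossed block 8593, against 7849 without a block. At this depth Tet1, Tdg, Brdt, S100a9, Postn and Cdkn1c, with at most 50 counts a library, allow no firm statement.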

Other observations

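Some genes are commonly read as reporters of DNA methylation, because in mouse somatic cells promoter methylation keeps them silent. Of 20 such germline genes, 14 had 0 counts in all 4 libraries, which in each library allows a level of up to 0.0689 to 0.0799 CPM. The 20 together summed to 1.08 and 1.52 CPM in the shMyb libraries and to 0.776 and 0.826 CPM in the shLuc libraries, most of it from Brdt, a testis bromodomain gene, at 32 and 50 counts in shMyb and 28 and 32 counts in shLuc. Brdt was the only gene of the list that was tested and did not pass (log2 fold change 0.58, edgeR adjusted p = 0.103), and it was called without shMyb replicate 1 (0.88, adjusted p = 0.0406). Dazl, a germ cell RNA-binding gene, had 2 and 1 counts in shMyb and 0 and 0 counts in shLuc. Ddx4, a germ cell helicase gene, had 7 and 5 counts in shMyb and 3 and 3 counts in shLuc.

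Imprinted genes are expressed from 1 parental copy, and DNMT1 maintains the methylation that tells the copies apart. Of 25 listed, 12 were tested, of which 2 rose, 2 fell and 8 were not called, at a median of 0.14. Over all tested genes 30.6% rose and 31.7% fell. H19 fell, at 3.36 and 3.60 CPM in shMyb against 36.1 and 37.8 CPM in shLuc (-3.41), and Grb10, an adaptor of growth factor receptors, fell by 0.98. Cdkn1c, a cell cycle inhibitor gene, rose (1.42) on 39 and 40 counts in shMyb against 19 and 13 counts in shLuc. Igf2, the neighbour of H19 with which it shares a methylated control region, had 2 and 4 counts in shMyb and 1 and 0 counts in shLuc. Igf2r stayed at -0.0089 (edgeR adjusted p = 0.857). Methylation and the parental origin of transcripts were not measured. Ddx4, Dazl, Igf2 and Igf2r were named here after their values were seen.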
